A study of Mus musculus with 12 samples.

Results

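Neuronal cultures made from mouse embryonic stem cells were compared after a longer and a shorter exposure to inhibitors of the WNT and BMP pathways. The comparison rests on 4 of the 12 arrays of the series, chosen by their titles: 2 arrays of WiBi_0-16 and 2 of WiBi_0-11. Both groups came from 129/Ola cells of male origin and received the WNT inhibitor 53AH at 2.5 µM and the BMP receptor inhibitor LDN193189 at 0.25 µM from day 0. In WiBi_0-11 both inhibitors ended at day 11, in WiBi_0-16 they were kept to day 16, and both groups were harvested at day 16 without any agonist. The groups therefore differed by 5 days of further inhibition, and the labels describe the culture with inhibitors to day 11 as isocortical. Each sample was RNA pooled from 3 sets of experiments, so an array shows no spread between those sets, and p-values measure only the spread between samples, which may be technical. The other culture arrays, 2 of CHIR_8-16 and 2 of CHIR_11-16, received the same inhibitors to day 8 or day 11 and then the WNT agonist CHIR to day 16, and served here to estimate the spread. The remaining 4 arrays of the series held mouse tissue of embryonic day 15 (E15). They were cortex, hippocampus, ventral telencephalon and midbrain, with 1 array each.

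In canonical WNT signalling, a ligand bound to Frizzled and LRP receptors stops the destruction complex from degrading beta-catenin, which then activates target genes together with TCF and LEF factors. Many of these targets, such as Axin2, Nkd1 and Dkk1, are themselves inhibitors of the pathway. BMP ligands act through serine/threonine kinase receptors and SMAD proteins on targets such as the Id genes and the inhibitory Smad6 and Smad7. In the embryonic forebrain both pathways are active at the dorsal midline, where the cortical hem patterns the hippocampus, and their inhibition is used in culture to obtain anterior neural cells.

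Levels are log2 signals relative to the 75th percentile of the array, so that a gene at 0 was as bright as that percentile, and differences are WiBi_0-16 minus WiBi_0-11 on the log2 scale. Slide 2 carried the first replicate of each culture group and slide 3 the second, and each difference was also taken within each slide. A spot is called well above background by the scanner software, which held for 61.2% and 64.41% of spots in WiBi_0-11 and for 65.61% and 66.77% in WiBi_0-16, with 0 saturated spots. The number of arrays limits the precision of every value. The cultures expressed neuronal genes, as labelled: all 27 pan-neuronal and synaptic genes measured were well above background on all 4 arrays, with Tubb3, the neuronal beta-tubulin, at 6.10 and 6.38 in WiBi_0-11 and at 6.08 and 6.43 in WiBi_0-16. The forebrain factor Tbr1 of early glutamatergic neurons was at 5.17, 4.71, 5.15 and 4.93 in the same order, and Dlx2, a factor of GABAergic progenitors, at 2.72, 3.90, 2.58 and 3.42. All 20 measured genes of the neural crest and mesenchyme list and 17 of 18 of the radial glia and astrocyte list were also above background on all 4 arrays. WiBi_0-11 replicate 2 stood apart for epithelial genes, with a summed linear signal of the endoderm, epithelium and muscle list of 2.65 (in units of the 75th percentile) against 0.225 to 0.313 on the other 3 arrays. WiBi_0-16 replicate 1 had the most genes (32) over 4-fold below all other 7 culture arrays, against 0 to 12 on those.

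In the comparison of 25538 genes, 3 genes fell with the longer inhibition and 0 rose (limma, Benjamini-Hochberg adjusted p under 0.05), which is 0.0117% of the genes tested. At an unadjusted p under 0.05 the counts were 1621 genes higher (6.35%) and 1148 lower (4.5%). All 3 genes that fell are transcripts of unclear function, and each had a signal above background in WiBi_0-11 and none above background in WiBi_0-16. Each passed the filter on dim probes only through WiBi_0-11, the group where it was high, so that the filter itself favoured a difference, and with probes above background on all 4 arrays 0 genes were called (2459 at an unadjusted p under 0.05). The probes that measured them are shown because the finding rests on a single probe each; their genome positions are those of build mm9, and all letters are lower case since no motif is marked. GC content was 53.3% for the first probe and 38.3% for the last.
BF149588: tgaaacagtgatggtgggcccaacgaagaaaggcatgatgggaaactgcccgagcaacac
lincRNA interval on chromosome 4: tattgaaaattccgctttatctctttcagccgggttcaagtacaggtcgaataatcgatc
Phf8-ps: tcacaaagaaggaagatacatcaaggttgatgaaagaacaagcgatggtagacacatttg

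The first probe, for the cDNA BF149588, lies on the plus strand of chr10:67045387-67045446. BF149588 was at -2.28 and -2.89 in WiBi_0-11 and at -7.60 and -7.48 in WiBi_0-16. The difference was -4.96 (SE 0.21, n = 2 a group, adjusted p = 0.0115). A probe that is above background on neither array of a group has only a bound there, and the difference is then given as the mean of the brighter group over the lowest level counted as above background on the dimmer arrays. By that rule BF149588 was at least 7.73-fold lower in WiBi_0-16. The second probe lies on the minus strand of chr4:148120175-148120234, inside an interval that the array design lists as a long intergenic noncoding RNA, chr4:148119487-148121143_R,. Its levels were -3.38 and -2.44 in WiBi_0-11 and -8.02 and -7.45 in WiBi_0-16. The difference of -4.83 (SE 0.19, adjusted p = 0.0107) was bounded at 6.17-fold or more. The third probe lies on the minus strand of chr17:33202938-33202997 and is assigned to Phf8-ps, a transcribed pseudogene, so that signal from other copies of its sequence cannot be told apart. Phf8-ps was at -4.84 and -4.19 in WiBi_0-11 and at -8.17 and -7.38 in WiBi_0-16, a difference of -3.26 (SE 0.13, adjusted p = 0.0107) and at least 2.02-fold.

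In none of the 3 genes did the arrays of the groups overlap, and each was above background on 2 of the 8 culture arrays, both of them WiBi_0-11. On the 4 agonist arrays they were not above background either, and a comparison there would share the same WiBi_0-11 arrays. In embryonic tissue BF149588 was above background on 1 of 4 arrays, that of E15 midbrain. The calls depend on the fit: 0 genes were called without the slide block (666 at an unadjusted p under 0.05), and 0 or 1 when any single array was left out (1433 to 2346). With dim values raised to the lowest signal counted as above background, an alternative chosen after seeing that these genes were dim, 0 genes were called (2624).

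**Figure D1:**
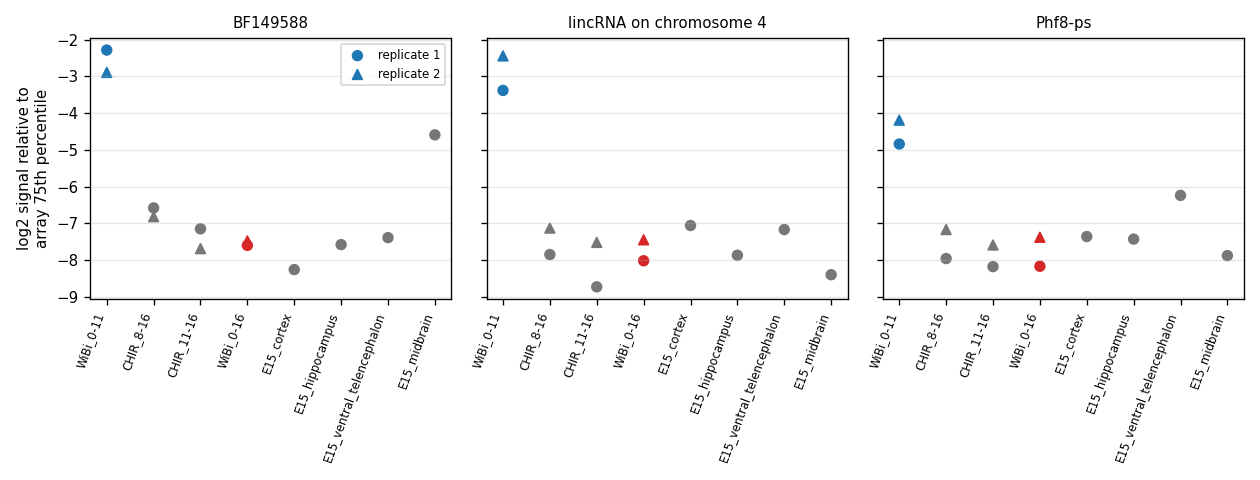
Log2 level of the 3 genes that fell, on the 12 arrays by group; blue marks WiBi_0-11, red WiBi_0-16 and grey the other groups, circles replicate 1 and triangles replicate 2. The 2 WiBi_0-11 arrays lie above the WiBi_0-16 and agonist arrays for each gene.

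The WNT feedback targets had a median difference of -0.56, against 0.00 over all genes (-0.25 with normexp background and quantile normalization, -0.37 in the series table), with 11 of 15 lower on both slides (29.7% of all genes) and 1 higher on both (32.5% of all genes). None passed the adjusted test. At an unadjusted p under 0.05, 4 of the 15 were lower (4.5% of all genes) and 0 were higher (6.35% of all genes). The arrays of the groups did not overlap for 7 that were lower in WiBi_0-16 (16.1% of all genes) and for 1 that was higher, Nkd2 (12.2% of all genes). In bulk RNA, fewer cells of a type and less RNA per cell cannot be told apart, here and in all lists that follow. The widest difference among members above background on all 4 arrays was that of Sp5, a transcription factor induced by beta-catenin. Sp5 was at -3.66 and -1.62 in WiBi_0-11 and at -5.63 and -4.15 in WiBi_0-16, with no overlap. Its difference of -2.25 (SE 0.59) did not pass the adjusted test (adjusted p = 0.404). That difference ranged from -2.39 to -1.29 under the other scalings and from -3.00 to -1.49 with 1 array left out. The level of -5.63 lay near -5.91, the lowest level counted as above background on WiBi_0-16 replicate 1. In CHIR_11-16 and CHIR_8-16 Sp5 was 3.13 and 3.02 above the same WiBi_0-11 arrays, and the list medians there were 0.75 and 0.92.

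Dkk1, a secreted antagonist that binds the LRP co-receptors, was at -7.78 and -2.62 in WiBi_0-11 and at -8.02 and -7.48 in WiBi_0-16. Only WiBi_0-11 replicate 2 was above background. The difference of -2.55 (SE 1.13, adjusted p = 0.49) therefore comes from slide 3, where it was -4.86, against -0.24 on slide 2. With WiBi_0-11 replicate 1 dim as well, no bound of the fold between the groups can be given. The epithelial genes were also high on WiBi_0-11 replicate 2, and the part of that in the Dkk1 value was not tested. Wif1, which binds WNT ligands, was at -0.75 and -1.74 in WiBi_0-11 and at -3.48 and -2.20 in WiBi_0-16. Ccnd1, the cyclin D1 gene, was at 1.20 and 1.65 in WiBi_0-11 and at 0.50 and 1.12 in WiBi_0-16. Neither gene had overlapping groups, with differences of -1.60 (adjusted p = 0.44) and -0.61 (adjusted p = 0.487). Nkd1, an inhibitor of Dishevelled, differed by -0.48, and its other probe by -1.55. Znrf3, which removes Frizzled from the membrane, differed by -1.18, the receptor gene Lgr5 by -0.56 and Tnfrsf19 by -0.37. With 1 array left out, Znrf3 ranged from -2.09 to -0.27. Lgr5 then ranged from -1.32 to 0.20 and Tnfrsf19 from -0.78 to 0.03, so their direction depends on single arrays. Apcdd1, a membrane inhibitor of the pathway, differed by -1.30 on slide 2 and by -0.71 on slide 3.

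Axin2, a scaffold of the destruction complex and a widely used readout of the pathway, was at -1.34 and -1.10 in WiBi_0-11 and at -1.35 and -0.84 in WiBi_0-16. These levels overlapped, with a difference of 0.13 (SE 0.35, adjusted p = 0.908), and the other probe of Axin2 gave -0.38. Lef1 differed by 0.26 and Nkd2 by 0.43, while their other probes gave -0.46 and -0.14. For these 3 genes the direction depends on the probe. Rnf43 differed by -0.11 and Notum, an enzyme that inactivates WNT ligands, by 0.00. Tcf7, which differed by -1.61, was not above background on any of the 4 arrays. Leaving out an array moved the list median to -0.33 or -0.88 (WiBi_0-16 replicate 1 or 2) and to -0.69 or -0.29 (WiBi_0-11 replicate 1 or 2).

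**Figure D2:**
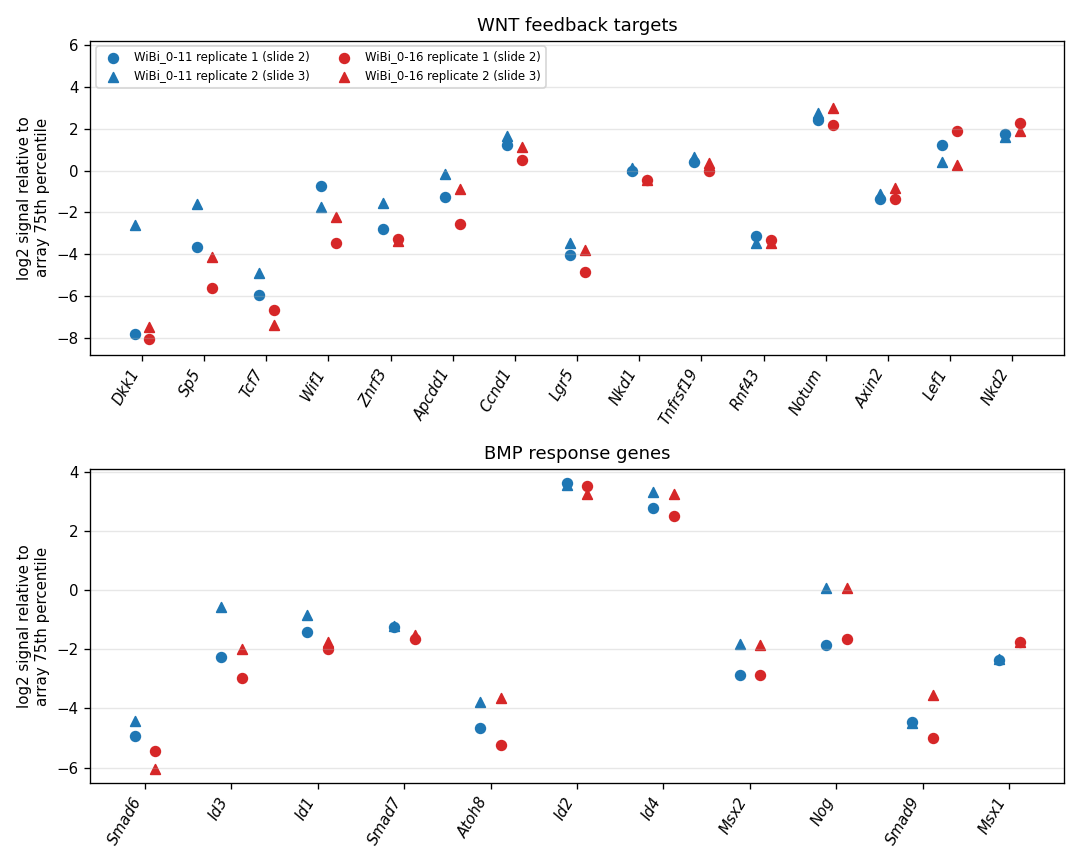
Log2 level of each measured WNT feedback target (upper panel) and BMP response gene (lower panel) on the 4 arrays, ordered by difference; blue marks WiBi_0-11, red WiBi_0-16, circles slide 2 and triangles slide 3. Sp5 separates the groups on both slides, whereas Dkk1 is high on a single WiBi_0-11 array and Axin2 overlaps.

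The upstream sequence of Sp5 is printed beside those of Dkk1, which was high on a single array, and Axin2, the readout gene whose groups overlapped. Sequences are those of RefSeq (GRCm38.p6), 250 bases before the transcript start, read 5′ to 3′ on the strand of the gene, with the TCF/LEF core CTTTGA, or TCAAAG where it lies on the opposite strand, in capitals. They cover chr2:70474673-70474922 (plus strand), chr19:30549497-30549746 (minus strand) and chr11:108920099-108920348 (plus strand).
Sp5: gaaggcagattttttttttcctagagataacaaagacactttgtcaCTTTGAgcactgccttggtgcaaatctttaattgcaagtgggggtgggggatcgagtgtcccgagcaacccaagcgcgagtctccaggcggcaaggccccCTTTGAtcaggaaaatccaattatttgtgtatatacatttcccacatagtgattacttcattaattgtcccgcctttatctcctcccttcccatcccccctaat
Dkk1: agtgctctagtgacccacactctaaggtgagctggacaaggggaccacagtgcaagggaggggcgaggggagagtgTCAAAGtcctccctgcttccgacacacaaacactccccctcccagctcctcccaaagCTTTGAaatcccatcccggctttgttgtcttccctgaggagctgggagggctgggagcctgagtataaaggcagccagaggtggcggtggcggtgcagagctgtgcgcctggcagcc
Axin2: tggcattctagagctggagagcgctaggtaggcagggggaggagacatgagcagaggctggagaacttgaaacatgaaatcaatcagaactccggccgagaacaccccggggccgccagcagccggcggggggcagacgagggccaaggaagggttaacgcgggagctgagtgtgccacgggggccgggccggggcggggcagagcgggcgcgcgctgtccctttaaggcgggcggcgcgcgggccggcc

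Sp5 held 2 matches, starting 204 and 104 bases before the start, Dkk1 held 2, at 174 and 117 bases, and Axin2 held 0. In windows of 300 bases (250 before and 50 after the start) the core was present in 4 of 16 windows of the 10 feedback targets that had an entry (25.0%) and in 16.0% of all 32851 windows. A match is a description of the letters and not a site.

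Among the secreted modulators of WNT signalling, 11 of 12 measured genes were lower on both slides (29.7% of all genes) and 0 were higher (32.5% of all genes), with a median of -0.41. This list shares at least Dkk1 with the feedback targets, so the lists are not independent. Frzb, a decoy that resembles Frizzled, was at -5.72 and -4.39 in WiBi_0-11 and at -6.91 and -6.29 in WiBi_0-16. It was above background on only 1 of these 4 arrays, an array of WiBi_0-11. Dkk3 was at 2.20 and 2.06 in WiBi_0-11 and at 1.51 and 0.62 in WiBi_0-16, which did not overlap (difference -1.06, adjusted p = 0.463). With the first WiBi_0-16 array left out the median was -0.71, and with the first WiBi_0-11 array left out it was -0.20.

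Of 14 measured WNT receptors, 8 were lower on both slides (29.7% of all genes) and 4 higher (32.5% of all genes). The list median was -0.16 (-0.07 with normexp background and quantile normalization, and -0.07 or -0.10 without WiBi_0-11 replicate 2 or WiBi_0-16 replicate 1). Fzd7, a Frizzled receptor of neural progenitors, was at -1.14 and -1.23 in WiBi_0-11 and at -2.17 and -1.98 in WiBi_0-16. The difference of -0.88 (SE 0.13, adjusted p = 0.394) had the same sign on both slides, -1.02 and -0.75, and its other probe gave -0.52. Fzd10 differed by -1.57 with an SE of 1.57, and Fzd6 was not above background on any of the 4 arrays. The WNT ligands had a median of 0.00 over 14 genes, of which 10 were above background on all 4 arrays. Wnt10b differed by 0.70, Wnt6 by 0.61, Wnt3 by -0.62 and Wnt9a by -0.45. Under the other scalings Wnt10b ranged from 0.09 to 0.60 and Wnt6 from 0.03 to 0.51. Wnt3 ranged from -0.73 to -0.34 and Wnt9a from -0.55 to -0.40. The destruction complex and TCF genes had a median of 0.05 over 17, which turned to -0.05 under scaling to the array median. Within that list Apc, the complex's large scaffold, differed by 0.45 on each slide, Gsk3b, its kinase, by 0.19, Ctnnb1, which encodes beta-catenin, by -0.24 and Tcf7l1 by -0.41. None of the ligand, receptor or complex genes passed the adjusted test.

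BMP response genes had a median difference of -0.20 over 11 measured genes. On both slides 6 were lower (29.7% of all genes) and 2 were higher (32.5% of all genes). The median was -0.04 with normexp background and quantile normalization and -0.10 in the series table. The groups did not overlap for 4 genes that were lower (16.1% of all genes) and 1 that was higher (12.2% of all genes), and 0 passed the adjusted test. Smad6, which blocks BMP receptor signalling, was at -4.92 and -4.44 in WiBi_0-11 and at -5.44 and -6.04 in WiBi_0-16, a difference of -1.06 (SE 0.28, adjusted p = 0.404). On WiBi_0-16 replicate 2 it was below -5.15, the lowest level counted as above background there, so the size of its difference is uncertain. Under the other scalings that difference ranged from -1.25 to -0.40. Id1, an inhibitor of basic helix-loop-helix factors and a direct SMAD target, was at -1.42 and -0.84 in WiBi_0-11 and at -1.98 and -1.77 in WiBi_0-16. Both genes separated the groups, Id1 with a difference of -0.75 (SE 0.35, adjusted p = 0.504). Id3 was at -2.25 and -0.59 in WiBi_0-11 and at -2.98 and -1.98 in WiBi_0-16, which overlapped across slides, although it was lower within both (-0.72 and -1.39). Smad7 differed by -0.35, Id2 by -0.20 and Id4 by -0.17. In the opposite direction, the homeobox gene Msx1 was at -2.35 and -2.33 in WiBi_0-11 and at -1.76 and -1.77 in WiBi_0-16, a difference of 0.57 (SE 0.26, adjusted p = 0.494). The other members, Atoh8, Msx2, Nog and Smad9, lay between -0.23 and 0.20. When WiBi_0-16 replicate 1 was dropped the list median was -0.09, and when its replicate 2 was dropped it was -0.30.

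Other parts of the BMP pathway showed no common direction. BMP ligands had a median of 0.07 over 9 genes, which turned to -0.03 under another scaling. Gdf10, a member of that family, was at -1.73 and -1.13 in WiBi_0-11 and at -3.06 and -2.77 in WiBi_0-16. This difference of -1.49 (SE 0.17, adjusted p = 0.394) did not pass the test, and Bmp8a differed by 0.61, Gdf7, a roof plate ligand, by 0.34 and Bmp2 by -0.39. Receptors and SMADs had a median of -0.01 over 12 genes, and Acvrl1 differed by 0.46, Acvr2b by 0.36, Bmpr1b by -0.34 and Rgma by -0.31. The extracellular antagonists had a median of -0.27 over 10, which was 0.02 without WiBi_0-16 replicate 1 and -0.60 without its replicate 2. Fst, the activin and BMP antagonist follistatin, was at -3.21 and -2.53 in WiBi_0-11 and at -4.45 and -4.49 in WiBi_0-16, with a difference of -1.60 (SE 0.38, adjusted p = 0.403). Fstl1 differed by -0.78 and Nbl1 by -0.42.

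Radial glia and astrocyte genes had a median of -0.42, with 13 of 18 lower on both slides (29.7% of all genes) and 1 higher (32.5%). The groups did not overlap for 11 genes that were lower (16.1% of all genes) and 1 that was higher (12.2%). Aldh1l1, a folate enzyme used as an astrocyte marker, was at 2.08 and 2.43 in WiBi_0-11 and at 0.04 and 0.91 in WiBi_0-16. Its difference of -1.78 (SE 0.50, adjusted p = 0.412) was -2.04 on slide 2 and -1.52 on slide 3. Aldoc, the aldolase of astrocytes, was at 4.97 and 5.28 in WiBi_0-11 and at 4.17 on both arrays of WiBi_0-16. Gfap, the filament of mature astrocytes and the member higher on both slides, named after its values were seen, differed by 0.36. The glutamate transporter Slc1a3 differed by -0.75 and Sparcl1 by -0.70. The summed linear signal of the list was 341 and 433 in WiBi_0-11 against 245 and 314 in WiBi_0-16, and the median was -0.20 without WiBi_0-11 replicate 1 and -0.23 with normexp background and quantile normalization.

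Of the progenitor, cell cycle and Notch lists, 0 genes passed the adjusted test. Of 21 pallial progenitor genes 12 were lower on both slides (29.7% of all genes) and 2 higher (32.5% of all genes). Their median of -0.28 moved to -0.08 or -0.14 when the first array of WiBi_0-16 or of WiBi_0-11 was dropped. Nes, the intermediate filament of neural stem cells, was at 2.81 and 3.01 in WiBi_0-11 and at 1.71 and 2.25 in WiBi_0-16, a difference of -0.93 (SE 0.22, adjusted p = 0.398). Nr2e1 and Tfap2c differed by -0.48 and -0.63, and Emx2, a patterning factor of the dorsal telencephalon, by 0.06. By their brightest probes all 21 proliferation genes had a negative difference, and 20 were lower on both slides (29.7% of all genes). The median was -0.31, with 0 genes past an unadjusted p of 0.05. That median was -0.49 on slide 2 and -0.17 on slide 3, -0.05 without WiBi_0-16 replicate 1 and -0.63 without its replicate 2. Ccne1, a cyclin of entry into S phase, differed by -0.57 (its other probe by 0.19), Cdc20 by -0.45, the replication helicase gene Mcm6 by -0.41 and Mki67 by -0.12. In the neurogenic cascade and Notch list, 12 of 23 were lower on both slides (29.7% of all genes) and 3 higher (32.5% of all genes). The list median was -0.32, and it was -0.10 or -0.18 without replicate 1 of WiBi_0-16 or of WiBi_0-11. Notch3 was at 0.94 and 1.07 in WiBi_0-11 and at 0.29 and 0.41 in WiBi_0-16, a difference of -0.66 on each slide (SE 0.12, adjusted p = 0.394), and the Notch target Nrarp and the ligand Jag1 differed by -0.71 and -0.48.

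The direction of the neuronal genes as a list depended on the scaling. The pan-neuronal median was 0.02 over 27 genes, with 15 higher, but -0.08 with 9 higher under scaling to the array median and 0.13 with 21 higher under quantile normalization, and the summed signal was 898 and 843 in WiBi_0-11 against 891 and 911 in WiBi_0-16. Gria2, an AMPA receptor subunit, differed by 0.64 (its other probe by -0.03), Snap25 by 0.37 and the neurofilament gene Nefl by -0.30. Medians were 0.04 for hippocampal, 0.06 for deep-layer and -0.12 for upper-layer cortical neuron genes, of which the first 2 turned sign under a scaling. The regional factors had these differences: Prox1 of the dentate gyrus by 0.14, Zbtb20 of the hippocampus by 0.20, Fezf2 by 0.17, Tbr1 by 0.10 and Bcl11b by -0.29. The other probe of Tbr1 gave 0.73 and that of Bcl11b -0.06. Wnt8b, a ligand of the cortical hem, differed by -0.36, Reln, of Cajal-Retzius cells, by 0.06, Gad1, which makes GABA, by -0.05, Dlx2 by -0.31, Sp8 by 0.17 and Olig2 by -0.27. Frat1 differed by -0.04 and Egfr by -0.24, with -0.15 and 0.24 by its other probes, so that the direction depends on the probe. Among them, no gene passed the adjusted test, and a difference below the test's reach is not shown to be absent.

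Neural crest and mesenchyme genes had a median of -0.50. In WiBi_0-16, 16 of 20 were lower on both slides (29.7% of all genes) and 0 were higher (32.5% of all genes). The groups did not overlap for 13 that were lower (16.1% of all genes), and 6 were lower at an unadjusted p under 0.05 (4.5% of all genes). Col1a1, a chain of type I collagen, was at 1.81 and 1.66 in WiBi_0-11 and at 0.06 and 0.23 in WiBi_0-16. Col1a2, the other chain, was at 2.31 and 2.11 in WiBi_0-11 and at 1.23 and 0.53 in WiBi_0-16. The 2 differences, -1.59 (SE 0.53) and -1.33 (SE 0.39), had adjusted p of 0.44 and 0.412. The matrix genes Lum and Postn differed by -1.49 and -1.27. Sox9 belongs both to this list and to the radial glia and astrocyte list, so these lists are not independent. The summed signal of the list was 21.3 and 23.4 in WiBi_0-11 and 11.7 and 14.7 in WiBi_0-16, and the part that mesenchymal, glial or dividing cells had in the WNT and BMP values was not tested.

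The endoderm, epithelium and muscle list had the lowest median, -1.10, but was -0.14 on slide 2 and -2.05 on slide 3. Krt8, a keratin of simple epithelia, was at -5.25 and -0.45 in WiBi_0-11 and at -5.37 and -4.65 in WiBi_0-16, and Cdh1, which encodes E-cadherin, at -6.92 and -2.97 against -7.22 and -6.94. These genes were high on WiBi_0-11 replicate 2 alone, and the list median was -0.40 without that array, -0.37 without WiBi_0-16 replicate 2 and -1.82 without its replicate 1. Epcam and Krt19 were above background on that array alone of the 4, so no bound of the fold between the groups can be given. They differed by -2.05 and -2.08 on slide 3 and by -0.43 and -0.12 on slide 2. Foxa2 and Foxa1, factors of endoderm and the floor plate, differed by -3.16 and -2.57 on slide 3 and by -0.07 and -0.44 on slide 2. Cholesterol synthesis genes also parted by slide, with a median of 0.13 on slide 2 and -0.67 on slide 3, and over both slides -0.27, which was -0.73 or 0.21 when WiBi_0-16 replicate 1 or 2 was left out. Immediate early genes had a median of 0.27, which was 0.09 without WiBi_0-16 replicate 2 and 0.11 with normexp background and quantile normalization. Fosb differed by 0.72 (0.48 and 0.95 by slide).

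**Figure D3:**
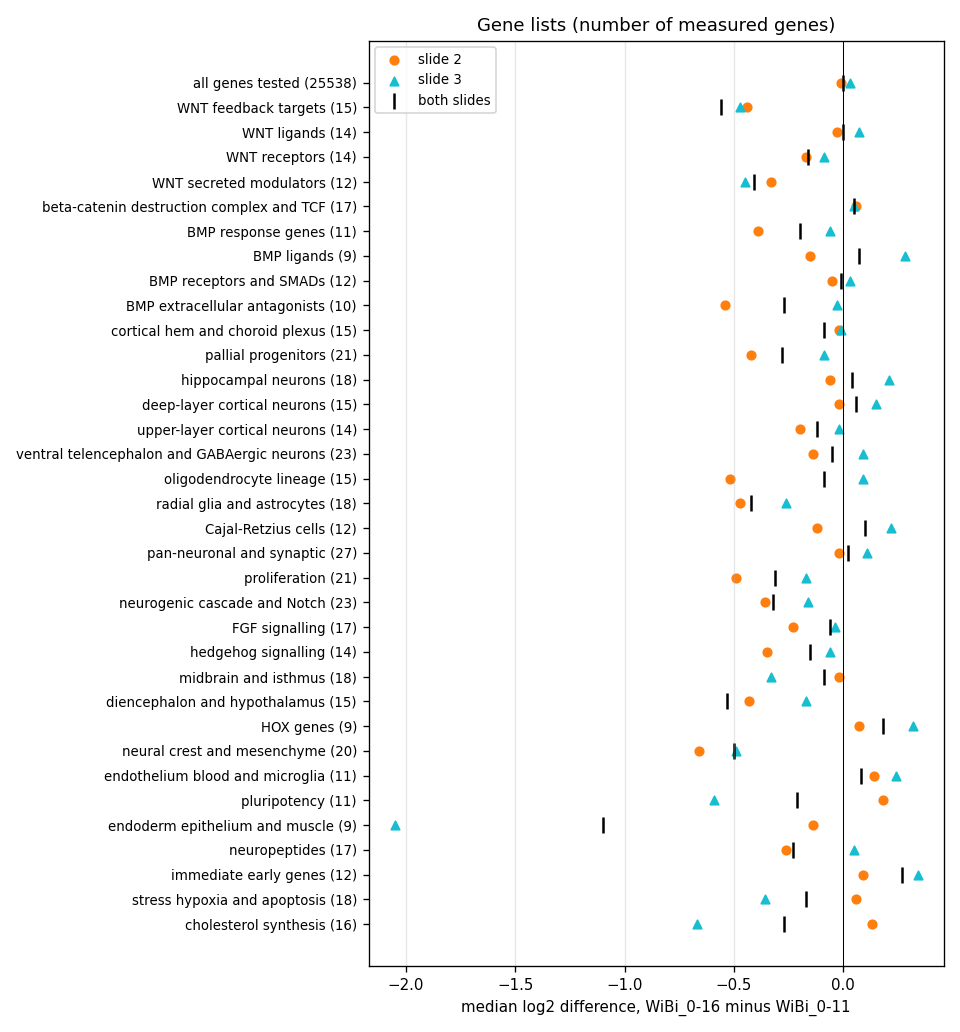
Median log2 difference of each gene list on slide 2 (circles), slide 3 (triangles) and over both slides (bars), with the number of measured genes in brackets. The mesenchyme, glia and WNT feedback medians lie below 0 on both slides, as do those of many of the other lists. Among these, the diencephalon and hypothalamus median is -0.43 on slide 2 and -0.17 on slide 3. The epithelium median is -0.14 on slide 2 and -2.05 on slide 3.

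Ranked by the smaller of the within-slide differences among genes above background on all 4 arrays, a ranking chosen after values were seen, Cpt1a and Angptl4 led the genes that were higher. Cpt1a, which brings fatty acids into mitochondria, was at -2.13 and -1.96 in WiBi_0-11 and at -0.25 and -0.54 in WiBi_0-16. Angptl4, a secreted inhibitor of lipoprotein lipase, was at -3.50 and -2.85 in WiBi_0-11 and at -1.69 on both arrays of WiBi_0-16. The groups did not overlap for either gene, with differences of 1.65 (SE 0.25) and 1.49 (SE 0.21), both with adjusted p = 0.394, and the other probe of Cpt1a gave 1.53. Among the genes that were lower, the collagen gene Col22a1 was at -0.07 and -0.05 in WiBi_0-11 and at -3.17 and -2.12 in WiBi_0-16, a difference of -2.59 (SE 0.35, adjusted p = 0.394). Orc1, a subunit of the replication origin complex, was at -2.72 and -2.71 in WiBi_0-11 and at -5.14 and -4.72 in WiBi_0-16 (-2.21, SE 0.27, adjusted p = 0.394). Serpinf1 differed by -1.80 (its other probe by -0.66), Dnaaf3 by -1.73 and Ecrg4 by -1.61.

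Genes with wider differences were dim in 1 group. Klk1b26, a kallikrein, was at -7.75 and -7.14 in WiBi_0-11 and at -1.54 and -2.47 in WiBi_0-16, higher by at least 10.1-fold with an adjusted p of 0.394. Il23r, a cytokine receptor gene, was at -3.28 and -3.26 in WiBi_0-11 and at -8.20 and -7.38 in WiBi_0-16, at least 4.79-fold lower (adjusted p = 0.08). The test was passed under scaling to the array median and under quantile normalization, but Il23r too was measured above background in WiBi_0-11 and on neither WiBi_0-16 array. Of these 2 groups, Gcnt1, Ssxb6 and Msrb3 were above background in WiBi_0-16 alone, and Olfr1179, Gsc and Folh1 in WiBi_0-11 alone, with adjusted p of 0.394 to 0.456.

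**Figure D4:**
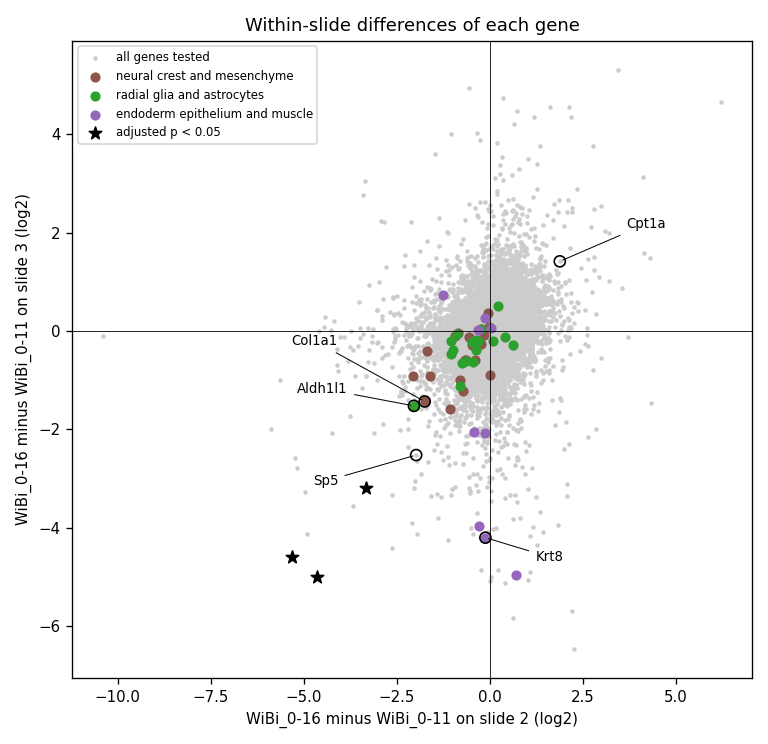
Difference of each gene on slide 2 (horizontal) against slide 3 (vertical), log2, with 3 gene lists in colour, the 3 genes with adjusted p under 0.05 as stars and named genes circled. Glia and mesenchyme genes gather below 0 on both axes, while Krt8 lies near 0 on slide 2 and at -4.20 on slide 3.

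The kinds of transcript differed by direction. Probes for intervals listed as long intergenic noncoding RNA made up 14.2% of the genes tested, 26.3% of the 1621 genes that were higher at an unadjusted p under 0.05 and 6.1% of the 1148 that were lower. RefSeq mRNAs made up 59.4%, 34.5% and 70.6% of the same sets. Among genes above background on all 4 arrays the shares of such intervals were 13.6% of all, 27.2% of those higher and 5.07% of those lower. Their median difference was 0.13 over all 3619 intervals, 0.12 on slide 2 and 0.15 on slide 3, against -0.03 for 15170 mRNAs. Scaling to the array median lowers every difference by 0.10.

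**Figure D5:**
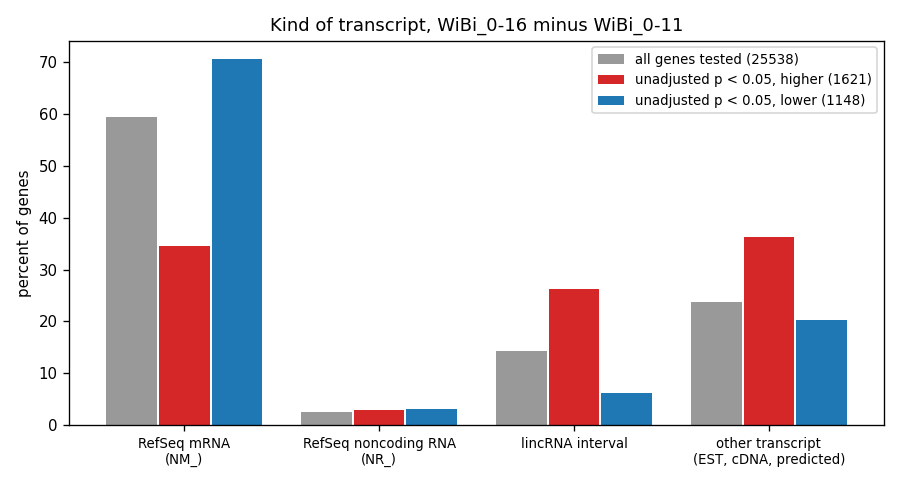
Percent of genes by kind of transcript among all genes tested (grey), genes higher in WiBi_0-16 at an unadjusted p under 0.05 (red) and genes lower (blue). Noncoding intervals make up 26.3% of the genes that were higher and 6.1% of those that were lower.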

How the data were processed

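Cy3-labelled cRNA was measured on 1-colour Agilent mouse arrays with 60-base probes, per the labels. Spot intensity values were deposited as extracted, background-subtracted and detrended by Agilent Feature Extraction 10.7.3.1, per the file headers, with no step between arrays (the submitters' processing notes name Agilent Feature Extraction 9.1 and limma). The authors also deposited a table of log2 values with nearly equal distributions across arrays, which was used as an alternative only.

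The log2 processed signal minus each array's 75th percentile was averaged over the unmarked spots of a probe. Probes were kept if both arrays of any culture group were well above background: 36430 of 55681 passed, and the brightest stood for each of 25538 genes, named through the file's accession or symbol. WiBi_0-16 was compared with WiBi_0-11 in limma 3.58.1 (R 4.3.3; lmFit, eBayes, 2-sided) over the 8 culture arrays, 1 mean per group, with slide as a block and Benjamini-Hochberg adjustment over all genes at 0.05. Replicate numbers mark slides in the files, and the deviations of same-numbered arrays correlated (0.579 to 0.667 for the 6 pairs of groups), so they were treated as paired. The median residual SD was 0.182 with and 0.317 without the block. The fit was tested on simulated data.

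The groups compared, the 34 gene lists and the named genes were chosen with earlier results of these data known. Named were called genes; up to 12 in each direction by the smaller within-slide difference; all WNT feedback targets and BMP response genes; up to 4 of each other list; and a set of anchor genes, not all of which are reported here. Alternatives changed the scaling, background, filter, probes, block, variance prior and arrays. The embryonic arrays entered no test.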

Additional observations from a re-analysis of the deposited data

How the results depend on the processing

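The 3 genes called, all lower in WiBi_0-16, were an outcome of the fit chosen. No genes (0) were called with no replicate block (666 genes at an unadjusted p under 0.05; smallest adjusted p 0.0906), with only the 4 arrays compared (2936), with normexp background and quantile normalization (2606), with no filter on dim probes (2692, of 35720 genes), with genes above background on all 4 arrays compared (2459), with a trended variance prior (2970) or with dim values raised to the lowest signal above background (2624, an alternative added after seeing the data). The series table called 1 gene, BF149588. Scaling to the array median and quantile normalization called 4 each, the same 3 and Il23r, and the former moved the median of all genes to -0.10. The count was 3 with the mean over probes, with outlier spots kept and with genes above background on both arrays of either group. Leaving out 1 array gave 0 to 1 calls: 1 without WiBi_0-16 replicate 2, the unnamed probe A_55_P2061134, which was not among the 3, and 0 without any of the other 3 arrays; the lone array was then assumed to vary like the other groups. No called value changed sign, but medians near 0 did: 9 of 34 lists turned sign under a scaling and 16 under any alternative, as did 41 of 207 named genes. Of the named genes' values under the alternatives, 2887 stayed within the spread between slides or, for called genes, were still called. A value near 0 could change sign within that spread. A further 533 moved beyond it, 32 values of called genes no longer passed the test, and 2 of uncalled genes passed it. Of the list medians 501 stayed within the replicate spread and 77 moved. Of 207 named genes 47 had another passing probe, and in 17 a probe had the opposite sign.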
